A study of Mus musculus with 10 samples.

Results

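NRF2, the transcription factor encoded by Nfe2l2, was examined together with its regulators and its core target genes in mouse microglia. The set held 10 of the 46152 genes counted, matched by symbol to NCBI gene identifiers in the RefSeq gene table. The 3 regulators were Nfe2l2 itself, Keap1 and Bach1, and the 7 targets were Nqo1, Gclc, Gclm, Slc7a11, Srxn1, Txnrd1 and G6pdx. The RNA came from brain cells of adult C57BL/6J mice that were enriched on a Percoll gradient and selected with CD11b magnetic beads, a selection that also keeps monocytes, granulocytes and border macrophages. The Vehicle group received 0.1% Tween 80 with 0.5% Hydroxymethyl Propyl-cellulose by gavage, and the GW2580 group received 80 mg/kg/d of GW2580, a small-molecule inhibitor of the kinase of CSF1R, each for 8 days. Each group had 5 libraries, 2 labelled male and 3 female, and no transgene or deletion is named for either group. The question was whether the regulators and the targets differed between the treated and the untreated microglia, and whether they differed in the same way.

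NRF2 is made continuously and is held in the cytoplasm by KEAP1, an adaptor that brings it to a CUL3 ubiquitin ligase for destruction. Electrophiles and oxidants modify cysteines of KEAP1, NRF2 then escapes, enters the nucleus, pairs with a small MAF protein and binds antioxidant response elements (AREs) in DNA. BACH1, a heme-sensitive repressor, competes for many of the same elements, and the level of the NRF2 messenger RNA is therefore not a measure of the activity of the protein. In brain the pathway is best known for its activity in astrocytes, and in microglia it is known for restraining oxidative and inflammatory responses.

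Promoter sequences of the genes, taken from RefSeq (GRCm38.p6), are shown because the letters of the ARE separate the members into those with and without a match near the start site. Windows from 250 bases before to 50 bases after a start site were found for 9 members, all but Gclc, with 3 windows for Txnrd1 and 11 in all. The ARE core TGACNNNGC, searched on both strands, was in 5 of the 11 windows, belonging to 5 genes, and in 12.4% of the 32817 windows of the whole table. The longer site for NRF2 or BACH1 with a small MAF partner, TGANTCAGC, which can overlap the ARE core when its N is C, was in the Srxn1 window alone among the members and in 1.19% of all windows. Capitals mark the match in each of the following stretches, which are written 5′ to 3′ in the direction of the gene, and a core on the opposite strand reads as its reverse complement. The first base of the match lay at -240 from the start site in Nfe2l2, -134 in Gclm, -92 in Txnrd1, -57 in G6pdx and -45 in Srxn1.
Nfe2l2, chr2:75704880-75704913, minus strand, ARE core: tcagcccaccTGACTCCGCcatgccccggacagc
Gclm, chr3:122245408-122245446, plus strand, ARE core: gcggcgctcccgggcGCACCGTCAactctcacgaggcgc
Txnrd1, chr10:82859099-82859137, plus strand, ARE core: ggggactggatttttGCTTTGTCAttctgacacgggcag
G6pdx, chrX:74428914-74428952, minus strand, ARE core: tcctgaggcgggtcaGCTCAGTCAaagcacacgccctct
Srxn1, chr2:152105464-152105502, plus strand, longer site: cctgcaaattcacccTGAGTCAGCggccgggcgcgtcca
Srxn1 also had an ARE core at 28 bases after its start site, which is not shown. The Nqo1, Keap1 and Bach1 windows held neither set of letters, which says only that these letters are absent from these windows.

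Slc7a11 is shown apart because it carried other letters. It is also a known target of ATF4, the transcription factor of the amino acid response, and its window held the short site TGATGCAA at -66 and again, on the opposite strand, at -47. This site was in 0.896% of all windows and in no window of another member. The capitals in the following stretch mark both copies.
Slc7a11, chr3:50443638-50443694, minus strand, ATF4 site: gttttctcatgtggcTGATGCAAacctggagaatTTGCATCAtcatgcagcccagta

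Fragments assigned to genes ranged from 12550418 to 20854218 with vehicle and from 13228819 to 26079343 with GW2580, and the least counted member, Slc7a11, had at least 64 fragments in every library. Levels are given as CPM (counts scaled to a common library total) scaled by TMM, which corrects for library composition. Of uniquely aligned fragments, 47.7% to 59.8% lay off annotated exons with vehicle and 47.1% to 70.8% with GW2580. The share was highest in GW2580 1 (68.0%) and GW2580 4 (70.8%), which also had the highest TMM factors, 1.23 and 1.61. Of 10 microglia markers, 9 were detected in every library and Trem2 was counted at 0 in 8 libraries and at 1 fragment in the other 2. The 10 summed to 17253 to 28230 CPM with vehicle and 20214 to 68285 CPM with GW2580. Markers of choroid plexus and ependymal cells summed to 66041 CPM in vehicle 5, against 521 to 3740 CPM in the other 9 libraries. Astrocyte markers summed to 3375 CPM in vehicle 2 and 1863 CPM in vehicle 5, against 204 to 682 CPM elsewhere, and oligodendrocyte markers to 17971 and 4429 CPM, against 165 to 1798 CPM elsewhere. Monocyte and granulocyte markers summed to 451 to 23596 CPM with vehicle and 505 to 10238 CPM with GW2580. Of these lists none had a marker at 0 in all libraries, and the part of these cells in the results was not tested. Vehicle 5 stands apart for several members, so results that change without it are given both ways.

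**Figure D1:**
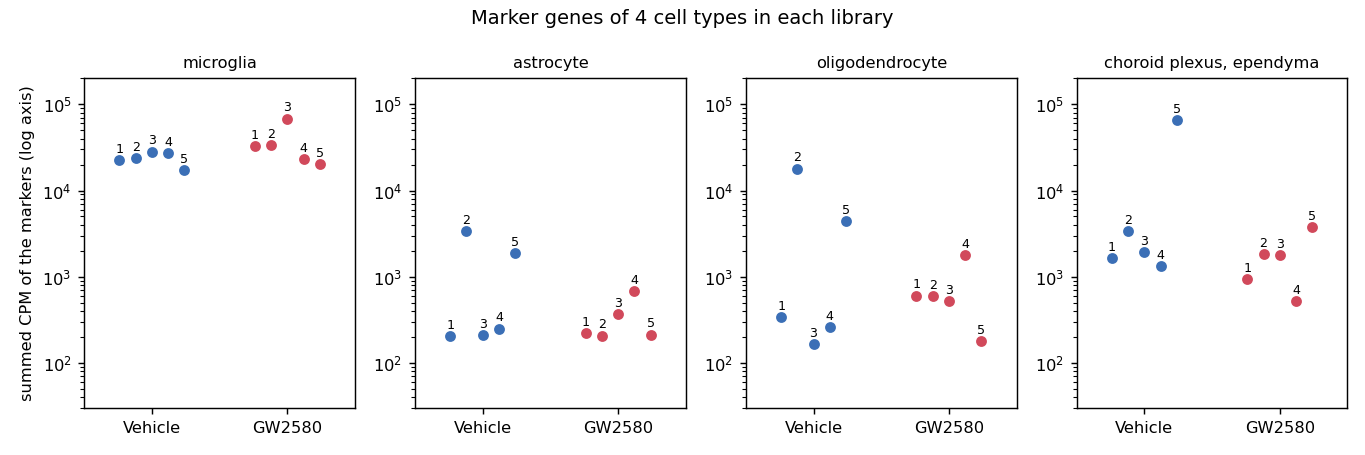
Summed CPM of the marker genes of microglia, astrocytes, oligodendrocytes, and choroid plexus with ependyma (log axis) in each library, with points numbered by replicate. Vehicle 5 reached 66041 CPM for the choroid plexus and ependymal markers, and vehicle 2 reached 17971 CPM for the oligodendrocyte markers.

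Across the 10 genes, GW2580 and vehicle differed in a mixed way. Bach1 (1.71-fold) and Gclc (1.69-fold) were higher with GW2580 and Nqo1 was lower (2.62-fold) at an unadjusted p under 0.05, while the group means of Nfe2l2 and Keap1 were close. By edgeR's quasi-likelihood test 2 of 10 members were thus higher, against 6.61% of the 28419 genes tested, and 1 was lower, against 8.12%. Under the study's rule of a fold change over 2 with an unadjusted p under 0.05, 0 members were higher (4.01% of all genes) and Nqo1 alone was lower (6.7%). After Benjamini-Hochberg adjustment over all genes 0 members and 0% of genes passed 0.05 with edgeR, against 4186 genes at an unadjusted p under 0.05, and DESeq2 gave 177 genes, so no member is described here as having risen or fallen. The median log2 fold change was 0.11 over the 3 regulators and -0.24 over the 7 targets, beside -0.03 over all genes tested. Without vehicle 5 the medians were 0.41 and 0.43, beside 0.05 over all genes. The gap between the medians of the regulators and the targets was thus absent without that 1 library. In bulk RNA, fewer cells of a type and less RNA per cell cannot be told apart. The labels give each library a sex and a number but do not say in words that it came from 1 mouse, so the p-values cover the spread between these libraries.

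**Figure D2:**
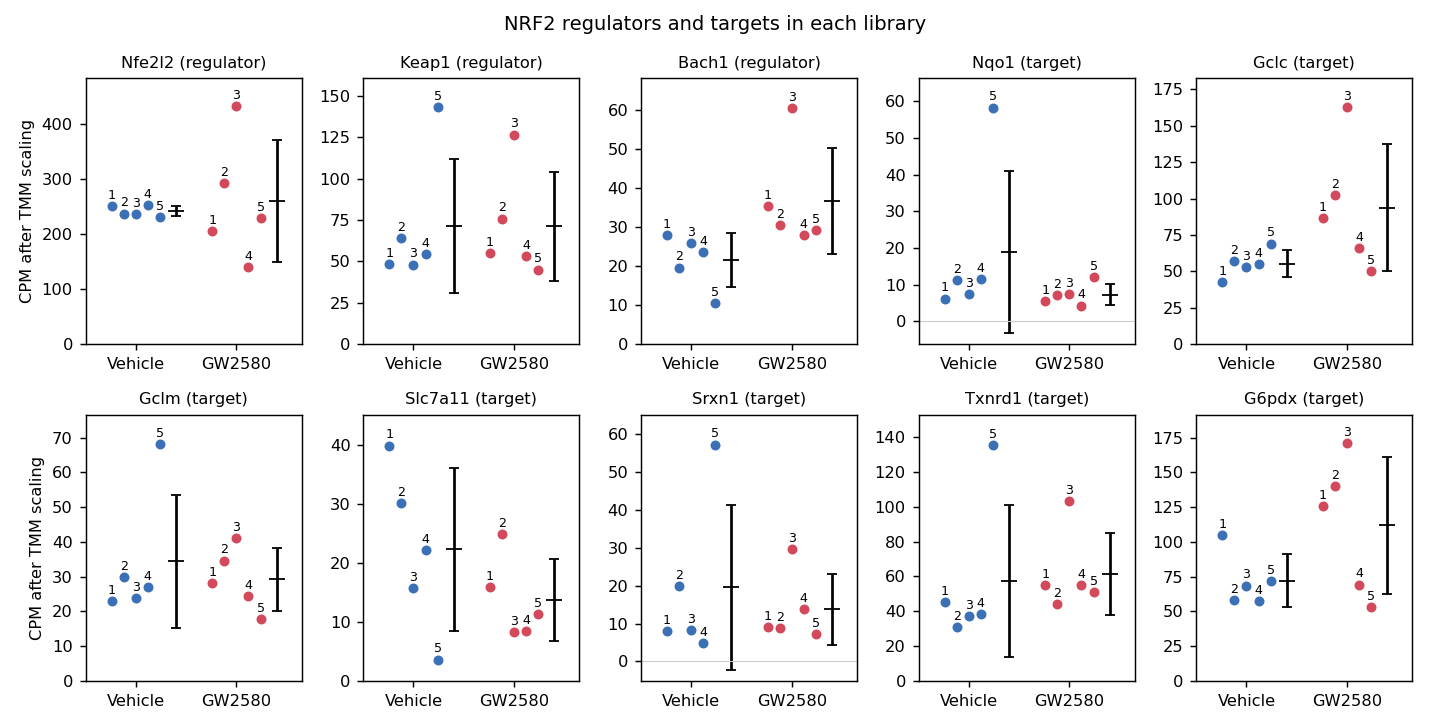
CPM after TMM scaling of the 3 regulators and 7 targets in each library, 1 panel per gene, with points numbered by replicate and the black bar showing the mean ± SD of the 5 libraries of a group. Vehicle 5 is the highest vehicle library for 6 of the 10 genes and GW2580 3 is the highest GW2580 library for 8.

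Nfe2l2 lies on chromosome 2 (75675513 to 75704663, minus strand, 6 merged exon blocks; GRCm38.p6, as for all positions here). With vehicle it measured 250, 237, 236, 253 and 231 CPM in replicates 1 to 5, and with GW2580 205, 293, 432, 140 and 230 CPM. The vehicle libraries lay within a narrow band, and the GW2580 libraries spread on both sides of it, with replicate 3 highest and replicate 4 lowest. The vehicle mean was 241 ± 9.42 CPM and the GW2580 mean 260 ± 111 CPM (n = 5 each, SD), a log2 fold change of 0.11 ± 0.34 (SE; edgeR adjusted p = 0.904). Among the members Nfe2l2 was the most abundant per length in vehicle libraries, at 112 ± 13.9 TPM (a level per gene length within a library), and its range was the only one clear of the next gene in the order.

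Keap1 (chromosome 9, 21229730 to 21239332, minus strand) encodes the adaptor that holds NRF2. Its level was 48.5, 63.9, 48.0, 54.4 and 143 CPM with vehicle and 54.8, 75.8, 127, 53.3 and 45.1 CPM with GW2580. Vehicle 5 and GW2580 3 were high in their groups and the other 8 libraries overlapped. GW2580 against vehicle gave a log2 fold change of -0.01 ± 0.40 (SE; edgeR adjusted p = 0.994), and 0.41 ± 0.34 without vehicle 5 (edgeR adjusted p = 0.468).

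Bach1 (chromosome 16, 87698954 to 87733346, plus strand) encodes the repressor at AREs. It measured 27.9, 19.7, 25.9, 23.6 and 10.4 CPM with vehicle and 35.3, 30.5, 60.6, 28.0 and 29.3 CPM with GW2580. All 5 GW2580 libraries were above all vehicle libraries, a separation found upward in 2.04% of all genes tested and in this member alone, but vehicle 1 and GW2580 4 were nearly equal. The log2 fold change was 0.77 ± 0.34 (SE; edgeR unadjusted p = 0.0395, adjusted p = 0.318), and the two-sided exact permutation test gave p = 0.00794, the smallest that all choices of 5 of 10 libraries can give. Vehicle 5 was the lowest library, and without it the log2 fold change was 0.60 ± 0.29 (edgeR unadjusted p = 0.0599). Without GW2580 3, the highest library, it was 0.52 (edgeR unadjusted p = 0.116). Bach1 had a low level per length in vehicle libraries, 5.56 ± 1.49 TPM, ninth of the 10 members.

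Nfe2l2 and Bach1 were also compared within each library, where scaling between libraries has no part. The ratio of Nfe2l2 to Bach1 per length was 15.6, 21.0, 15.8, 18.6 and 38.5 with vehicle and 10.1, 16.7, 12.4, 8.68 and 13.6 with GW2580. GW2580 2 lay above vehicle 1 and vehicle 3, and the other 4 GW2580 libraries lay below all vehicle libraries. The ratio of Nfe2l2 to Keap1 was 1.89 to 6.04 with vehicle and 3.07 to 5.96 with GW2580 and the groups overlapped. These ratios were chosen after the values were seen and carry no test.

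The targets begin with the enzymes that make glutathione, the main thiol antioxidant of the cell. Gclc (chromosome 9, 77754535 to 77794489, plus strand) encodes the catalytic subunit of glutamate-cysteine ligase, the rate-limiting enzyme. It measured 42.8, 56.9, 52.9, 54.8 and 69.1 CPM with vehicle and 86.5, 103, 163, 66.0 and 49.97 CPM with GW2580. GW2580 1, 2 and 3 were above all vehicle libraries, while GW2580 4 and 5 lay within the vehicle range. In the fit with all libraries the log2 fold change was 0.76 ± 0.35 (SE; edgeR unadjusted p = 0.0456, adjusted p = 0.332; two-sided exact permutation p = 0.0714). Without vehicle 5 it was 0.85 ± 0.35 (edgeR unadjusted p = 0.0293), and without GW2580 3 it was 0.47 (edgeR unadjusted p = 0.131).

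Gclm (chromosome 3, 122245487 to 122267215, plus strand) encodes the modifier subunit, which raises the efficiency of the catalytic one. Its level was 23.0, 29.96, 23.7, 27.1 and 68.2 CPM with vehicle and 28.1, 34.7, 41.2, 24.4 and 17.9 CPM with GW2580. Vehicle 5 was far above the rest, and the other libraries overlapped. The log2 fold change was -0.24 ± 0.37 (SE; edgeR adjusted p = 0.783) and, without vehicle 5, 0.17 ± 0.28. It overlaps Gm46822 on the opposite strand over 20 bases, 0.895% of its exon length, where reads of the 2 genes cannot be told apart without strand.

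The balance of the catalytic to the modifier subunit within a library separated the groups. The ratio of Gclc to Gclm per length was 1.120, 1.144, 1.34, 1.22 and 0.610 with vehicle and 1.85, 1.78, 2.38, 1.63 and 1.68 with GW2580. All 5 GW2580 libraries were above all vehicle libraries, and they remain above them without vehicle 5, since vehicle 5 was the lowest. The mean was 1.09 ± 0.28 in the vehicle libraries and 1.87 ± 0.30 in the GW2580 libraries (n = 5 each, SD). Like the other ratios it was chosen after the values were seen, no count of such ratios over all pairs of genes was made, and no test is given.

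**Figure D3:**
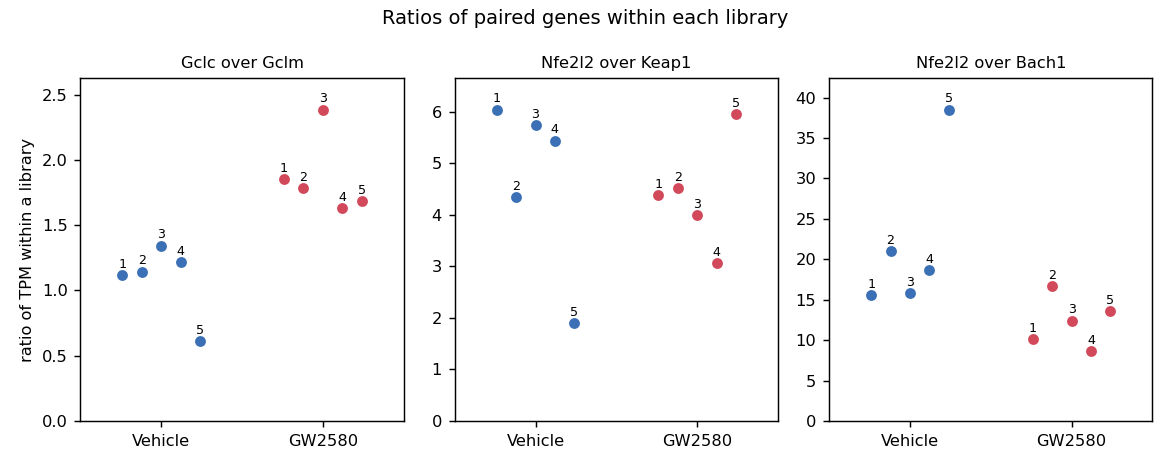
Ratio of TPM within each library for Gclc over Gclm, Nfe2l2 over Keap1 and Nfe2l2 over Bach1, with points numbered by replicate and the axis starting at 0. Gclc over Gclm ranged from 0.610 to 1.34 with vehicle and from 1.63 to 2.38 with GW2580, while the other 2 ratios overlapped between the groups.

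Slc7a11 (chromosome 3, 50364936 to 50499087, minus strand) encodes the cystine transporter xCT, which supplies the cysteine for glutathione. It measured 39.9, 30.1, 15.8, 22.2 and 3.595 CPM with vehicle and 15.97, 24.9, 8.22, 8.38 and 11.3 CPM with GW2580. Vehicle 5 was the lowest of all libraries, while for Nqo1, Gclm, Srxn1 and Txnrd1 it was the highest of all, and the other 4 vehicle libraries overlapped GW2580 1 and 2 alone. GW2580 against vehicle gave a log2 fold change of -0.70 ± 0.51 (SE; edgeR adjusted p = 0.529). Without vehicle 5 it was -0.97 ± 0.37 (edgeR unadjusted p = 0.0179, adjusted p = 0.170). Without vehicle 1, the highest library, it was -0.39 (edgeR unadjusted p = 0.468). Monocyte and granulocyte markers were also highest in vehicle 1 (23596 CPM) and lowest in vehicle 5 (451 CPM). GW2580 3 and GW2580 4, next lowest for Slc7a11, had 505 and 689 CPM of these markers, while the remaining libraries followed another order. The part of these cells was not tested.

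Nqo1 (chromosome 8, 107388225 to 107403205, minus strand) encodes a quinone reductase that is a standard readout of NRF2. Its level was 6.14, 11.3, 7.35, 11.5 and 58.3 CPM with vehicle and 5.44, 7.12, 7.33, 4.26 and 11.98 CPM with GW2580. The groups overlapped, and only vehicle 5 stood outside the range of the others. The log2 fold change was -1.39 ± 0.58 (SE; edgeR unadjusted p = 0.0307, adjusted p = 0.303; two-sided exact permutation p = 0.175). Without vehicle 5 it was -0.33 ± 0.33 (edgeR unadjusted p = 0.328, adjusted p = 0.545), so the difference rested on 1 library.

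Srxn1 (chromosome 2, 152105524 to 152111376, plus strand) encodes sulfiredoxin, which repairs overoxidized peroxiredoxins. It measured 8.01, 19.9, 8.19, 4.82 and 57.3 CPM with vehicle and 8.99, 8.90, 29.8, 13.9 and 7.18 CPM with GW2580. Vehicle 5 and GW2580 3 were high and the groups overlapped. In the fit with all libraries the log2 fold change was -0.52 ± 0.62 (SE; edgeR adjusted p = 0.715), 0.43 ± 0.46 without vehicle 5, and 0.96 ± 0.44 without vehicle 2 and vehicle 5 (edgeR unadjusted p = 0.0454, adjusted p = 0.353).

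Txnrd1 (chromosome 10, 82833951 to 82897724, plus strand) encodes cytosolic thioredoxin reductase. Its level was 45.3, 30.9, 37.1, 38.5 and 135 CPM with vehicle and 54.9, 44.0, 103, 55.0 and 51.0 CPM with GW2580. Apart from vehicle 5, only vehicle 1 reached into the GW2580 range, where it lay just above GW2580 2. The log2 fold change was 0.10 ± 0.43 (SE; edgeR adjusted p = 0.930), and without vehicle 5 it was 0.70 ± 0.31 (edgeR unadjusted p = 0.0399, adjusted p = 0.207).

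G6pdx (chromosome X, 74409483 to 74428880, minus strand) encodes the first enzyme of the pentose phosphate pathway, a source of NADPH for these reductases. It measured 105, 58.2, 68.6, 57.6 and 71.6 CPM with vehicle and 126, 140, 171, 69.2 and 53.1 CPM with GW2580. GW2580 1, 2 and 3 were above all vehicle libraries, as for Gclc, while GW2580 5 was the lowest of all. GW2580 against vehicle gave a log2 fold change of 0.63 ± 0.37 (SE; edgeR adjusted p = 0.425), and it was 0.63 ± 0.38 without vehicle 5. It overlaps Ikbkg on the opposite strand over 51 bases, 2.18% of its exon length, and reads shared with its near-identical copy G6pd2 are uncertain.

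**Figure D4:**
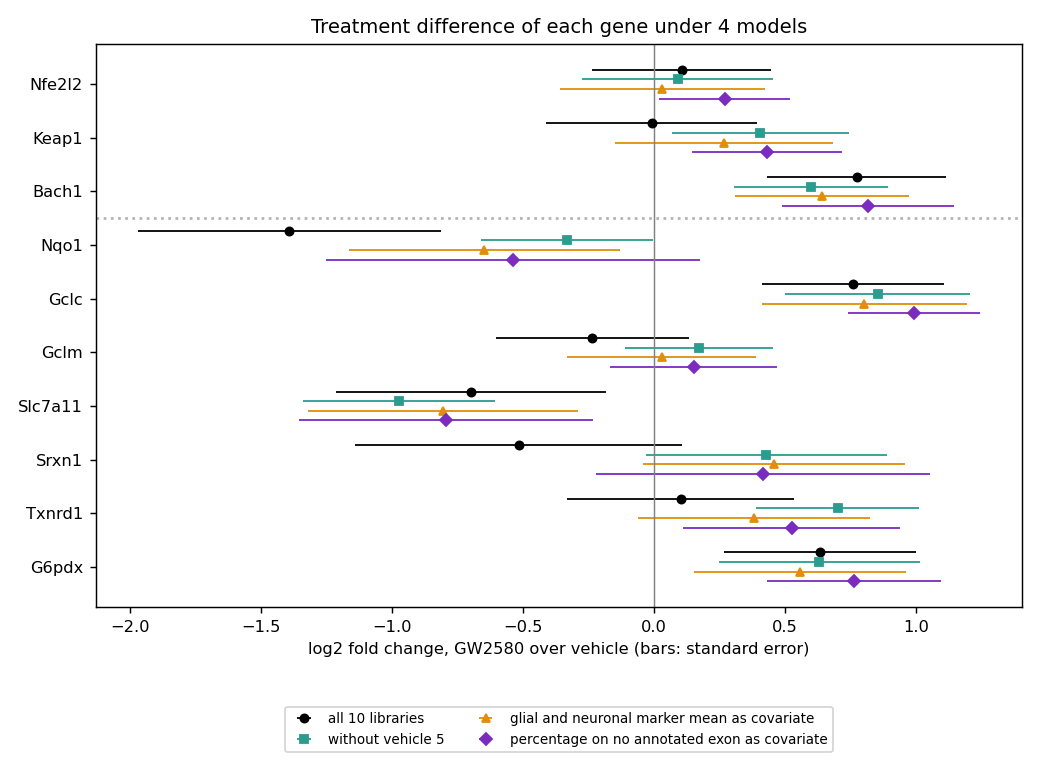
Log2 fold change of GW2580 over vehicle for each gene (symbols) with its standard error (bars), with all 10 libraries, without vehicle 5, and with a glial and neuronal marker mean or the share of fragments off annotated exons as a covariate. Nqo1 moves from -1.39 to -0.33 and Srxn1 from -0.52 to 0.43 when vehicle 5 is left out, while Gclc stays between 0.76 and 0.99.

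The members did not deviate together in vehicle 5. Set against the mean of vehicle 1 to 4, Nqo1 was 6.43-fold higher in vehicle 5, Srxn1 5.604-fold, Txnrd1 3.57-fold, Keap1 2.66-fold and Gclm 2.63-fold. In the same library Slc7a11 was 7.51-fold lower and Bach1 2.32-fold lower, while Nfe2l2, G6pdx and Gclc were 0.95, 0.99 and 1.33 times the mean of the others. These are values of 1 library with no test. Choroid plexus and ependymal markers were highest in vehicle 5, at 66041 CPM. Its astrocyte and oligodendrocyte markers, at 1863 and 4429 CPM, were above those of every library but vehicle 2. Microglia markers (17253 CPM) and monocyte and granulocyte markers (451 CPM) were lowest in vehicle 5. The part of these cells in its values was not tested.

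Levels of the 2 roles were also averaged within each library on the log2 CPM scale. The mean over the regulators was 6.10 ± 0.04 in the vehicle libraries and 6.37 ± 0.52 in the GW2580 libraries (n = 5 each, SD), and over the targets it was 4.86 ± 0.43 and 4.84 ± 0.38. The targets minus the regulators were -1.24 ± 0.41 with vehicle and -1.53 ± 0.19 with GW2580, and the groups overlapped. Per length, the order of the vehicle means after Nfe2l2 was G6pdx (54.5 TPM), Keap1 (29.95), Gclm (28.8), Txnrd1 (27.4), Gclc (26.7), Nqo1 (24.3), Srxn1 (13.7), Bach1 (5.56) and Slc7a11 (3.88 TPM), and each of these overlapped the next in range. By median, which vehicle 5 moves less, Nqo1 was at 11.2 TPM and Srxn1 at 4.99 TPM.

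The sexes were compared through an interaction of sex and treatment in the same model. The smallest unadjusted p over the members was 0.277 and 0 of 10 were under 0.05 by edgeR in these 2 male and 3 female libraries per group.

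Genes whose log2 CPM followed a regulator most closely over the 10 libraries were taken from 7573 genes above 20 CPM on average, as a description over libraries that share depth and composition. For Nfe2l2 they were Clcc1 (r = 0.983), Klhl36 (0.980) and Eed (0.978), and for Keap1 they were Phf21a (r = 0.992), Nr2f6 (0.990) and Sugp1 (0.987). For Bach1 they were Slc7a6 (r = 0.975), Gm35558 (0.971) and Calhm2 (0.969).

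The partners of NRF2 and KEAP1 (12 genes: ubiquitin ligase parts, p62, small MAF and related factors) held 0 genes higher and 0 lower at an unadjusted p under 0.05, beside 6.61% and 8.12% of all genes, with a median log2 fold change of 0.06. Without vehicle 5 there were 3 higher and 0 lower, beside 13.04% and 9.27% of all genes, with a median of 0.33. These 3, named after their values were seen, were Cul3 (log2 fold change 0.93), the scaffold of the KEAP1 ligase, Dpp3 (1.02), which encodes a KEAP1-binding peptidase, and Nfe2l1 (0.99), a relative of Nfe2l2. Sqstm1, which encodes the KEAP1-binding protein p62, averaged 379 ± 176 CPM in the vehicle libraries and 516 ± 288 CPM in the GW2580 libraries (n = 5 each, SD). Rbx1, a ligase subunit, measured 179 ± 46.7 and 114 ± 137 CPM, with 4 GW2580 libraries below all vehicle libraries and GW2580 5 above them. Mafg, the partner of NRF2 on DNA, measured 135 ± 25.5 and 143 ± 69.5 CPM.

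Beyond the core targets, 24 other genes known to depend on NRF2 were listed, and of the 23 tested 9 were lower with GW2580 and 0 were higher at an unadjusted p under 0.05, beside 8.12% and 6.61% of all genes. The median log2 fold change of this list was -0.72, against -0.24 for the core targets and -0.03 for all genes. Without vehicle 5 the counts were 8 lower and 1 higher, beside 9.27% and 13.04% of all genes, with a median of -0.47. The 8 were not all among the 9. Me1 moved from a log2 fold change of -2.52 to -0.06 without vehicle 5 and Pir from -1.87 to 0.06, while Ftl1 came in (edgeR unadjusted p = 0.0261). Me1 and Pir were named after their values were seen. The list had no gene with an adjusted p under 0.05 in the fit with all libraries. Without vehicle 2 and vehicle 5 the counts were 6 lower and 1 higher, with a median of -0.09. Without GW2580 1 they were 5 lower and 0 higher, with a median of -0.69. Calls over all genes also fell in these fits. In either direction, 4186 of 28419 genes with all libraries had an edgeR unadjusted p under 0.05. Without vehicle 2 and vehicle 5 it was 3862 of 27463, and without GW2580 1 it was 2136 of 27723. A list of 10 large ribosomal proteins, used as a comparison, had all 10 values below 0 with a median of -0.75 and 2 lower at that p, and its summed level was 1120 to 2153 CPM with vehicle and 349 to 1783 CPM with GW2580. Without vehicle 5, 5 of the 10 were lower and their median was -0.89. The part of such a shared movement in the antioxidant list was not tested.

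Prdx1, a peroxiredoxin that reduces hydrogen peroxide, had the smallest p of these. It measured 326, 601, 389, 445 and 439 CPM with vehicle and 117, 249.2, 240, 69.4 and 229 CPM with GW2580. The lowest were GW2580 1 and GW2580 4, which also had the highest shares of fragments off annotated exons (68.0% and 70.8%), whose part was not tested. All 5 GW2580 libraries were below all vehicle libraries, a separation found downward in 0.985% of all genes and in 4 of the 23 listed. The others were Cbr1, Htatip2 and Esd, named after their values were seen. For Prdx1 the log2 fold change was -1.28 ± 0.40 (SE; edgeR unadjusted p = 0.00635, adjusted p = 0.280; two-sided exact permutation p = 0.00794, the smallest possible).

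Iron storage and conjugation were represented by ferritin and a glutathione transferase. Fth1, the ferritin heavy chain, measured 10171, 23554, 8998, 8808 and 3521 CPM with vehicle and 1791, 4628, 3464, 1221 and 5169 CPM with GW2580 (log2 fold change -1.76 ± 0.60, SE; edgeR unadjusted p = 0.0113, adjusted p = 0.280). Vehicle 5 alone of the vehicle libraries lay within the GW2580 range, and the same held for Ftl1, the ferritin light chain, at 3560 CPM in vehicle 5, 16749 to 21749 CPM in the other vehicle libraries and 1861 to 9985 CPM with GW2580 (log2 fold change -1.29, edgeR unadjusted p = 0.0572, and -1.55 without vehicle 5, edgeR unadjusted p = 0.0261). Gstm1, a glutathione S-transferase, measured 59.0, 1157, 26.1, 36.1 and 228 CPM with vehicle and 17.8, 61.6, 26.6, 66.8 and 19.3 CPM with GW2580. Its log2 fold change of -2.97 ± 0.95 (SE; edgeR unadjusted p = 0.00731, adjusted p = 0.280) was given by groups that overlapped apart from vehicle 2 and vehicle 5 (two-sided exact permutation p = 0.175). It was -3.05 without vehicle 5 (edgeR unadjusted p = 0.00563), -1.18 without vehicle 2 (0.0890) and -0.09 without both (0.858). These 2 libraries also had the highest astrocyte markers, whose part was not tested.

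Partners and paralogs of the members, such as the other chain of xCT and the enzymes next to G6pdx and the glutathione ligase, numbered 12, and 10 were tested. Of these 2 were lower and 0 higher at an unadjusted p under 0.05, beside 8.12% and 6.61% of all genes, with a median log2 fold change of -0.44. Without vehicle 5 the median was -0.04, with 2 lower and 1 higher, beside 9.27% and 13.04% of all genes. The higher gene was H6pd (log2 fold change 1.01), a relative of G6pdx in the endoplasmic reticulum that was named after its values were seen. Pgls, the lactonase that follows G6pdx, measured 125, 137, 136, 153 and 130 CPM with vehicle and 29.0, 100, 81.0, 23.95 and 85.9 CPM with GW2580. GW2580 1 and GW2580 4, the lowest, also had the highest shares of fragments off annotated exons (68.0% and 70.8%), whose part was not tested. All GW2580 libraries were below all vehicle libraries, a separation found downward in 0.985% of all genes tested and in Pgls alone among these 10. The log2 fold change was -1.09 ± 0.41 (SE; edgeR unadjusted p = 0.0177, adjusted p = 0.280). That of G6pdx had the opposite sign (0.63, edgeR adjusted p = 0.425). Ggct, an enzyme of glutathione breakdown, was lower at 4.94 ± 2.35 against 1.93 ± 1.17 CPM (SD, n = 5 each; edgeR unadjusted p = 0.0108, adjusted p = 0.280). Without vehicle 2 and vehicle 5 its edgeR unadjusted p was 0.112. Slc3a2, the chain that carries xCT to the membrane, measured 733 ± 167 and 756 ± 378 CPM, a log2 fold change of 0.05. Oplah, which returns oxoproline to glutamate, was at 161 CPM in vehicle 5 and at 9.27 to 24.3 CPM in the other 9 libraries.

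The ATF4 response, which shares Slc7a11 with NRF2, had 1 of 10 genes lower and 0 higher at an unadjusted p under 0.05, beside 8.12% and 6.61% of all genes, with a median log2 fold change of -0.02. Without vehicle 5 it had 0 lower and 1 higher, beside 9.27% and 13.04% of all genes, with a median of 0.10. The higher gene, named after its values were seen, was Aldh18a1 (log2 fold change 0.98), an enzyme of proline synthesis. The gene lower with all libraries was Trib3, a target and inhibitor of ATF4, at 4.10 ± 1.18 with vehicle against 2.43 ± 0.62 CPM with GW2580 (SD, n = 5 each; edgeR unadjusted p = 0.0360, adjusted p = 0.313). Its unadjusted p was over 0.05 without vehicle 5 (0.0705), and also without vehicle 1 (0.0779), vehicle 2 (0.0531), GW2580 1 (0.0846) or GW2580 4 (0.0658). Atf4 measured 287 ± 79.0 and 294 ± 138 CPM, Atf3 1028 ± 410 and 1404 ± 625 CPM, and Phgdh, the first enzyme of serine synthesis, 186 ± 84.9 and 182 ± 98.0 CPM.

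**Figure D5:**
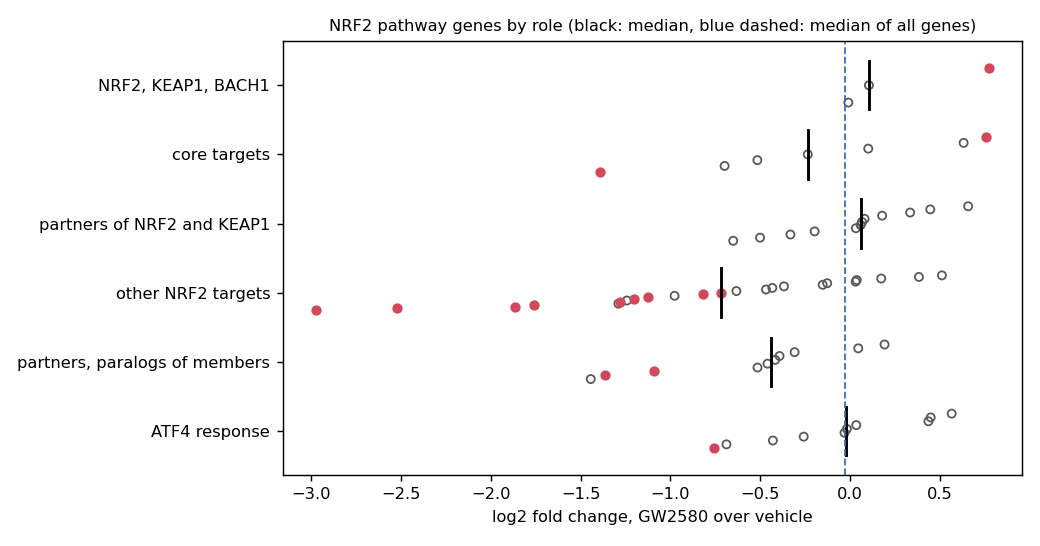
Log2 fold change of GW2580 over vehicle for the genes of each role (points), with filled points for an unadjusted p under 0.05 by edgeR, black lines for the median of a list and the dashed line for the median of all genes tested. The other NRF2 targets have 9 filled points, all below 0, and the 12 partners of NRF2 and KEAP1 have 0.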

How the data were processed

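The authors aligned read pairs of each library with STAR to GRCm38 and deposited raw counts of uniquely assigned fragments per RefSeq gene, counted without regard to strand (featureCounts 1.6.3 per the file headers), with gene lengths in bases and counts of unassigned records. Groups, sex and replicate numbers came from the labels. The 28419 genes that exceeded 1 CPM in 3 or more libraries were tested on the counts with edgeR 4.0.16 (R 4.3.3), by the quasi-likelihood F test with TMM factors and no covariate beside treatment, the model of the study's methods, and Benjamini-Hochberg adjustment over all genes. The standard error was the log2 fold change divided by the square root of F. Log2 CPM used a prior count of 2. Exact permutation tests ran over all choices of 5 of 10 libraries. TPM used the deposited gene length. Alternatives used DESeq2 1.42.0 and limma 3.58.1, other factors, filters and covariates, removal of a loess trend with length (span 0.5), thinning, and left-out libraries. The count test was also run on simulated counts, drawn independently for each gene and library. No outlying library was simulated, so that check does not cover data with a library such as vehicle 5.

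The members and lists were chosen with earlier results of these data known. Named beyond the members were the 3 genes of highest mean CPM of each wider list, up to 3 of smallest unadjusted p under 0.05, and the 3 genes most correlated with each regulator. The smallest library had 12550418 assigned fragments, and since reads carried no molecular identifiers, a count is not a number of molecules.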

Additional observations from a re-analysis of the deposited data

Results flagged for a closer look

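In 7 of the 20 groups of 5 values (10 genes in 2 groups) the highest library stood apart from the rest by more than Dixon's 95% critical value. Chance gives about 1 in 20 where values are normally distributed, which was not shown for these CPM values. Of these 5 were in vehicle 5, which had 143 CPM of Keap1, 58.3 CPM of Nqo1, 68.2 CPM of Gclm, 57.3 CPM of Srxn1 and 135 CPM of Txnrd1. The 5 genes were read from the same library, so the 5 values are not independent. The other 2 were in GW2580 3, with 60.6 CPM of Bach1 and 103 CPM of Txnrd1. GW2580 3 also had the highest summed microglia markers, 68285 CPM, and the lowest TMM factor, 0.691, and their part in its values was not tested.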

How the results depend on the processing

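Each gene was refitted under 24 alternatives. Bach1 and Gclc stayed above 0 and Nqo1 below 0 in all 24, with log2 fold changes of 0.50 to 0.93, 0.47 to 0.99 and -1.68 to -0.22, and an unadjusted p under 0.05 in 12, 11 and 14 of them. Slc7a11 stayed below 0 and G6pdx above 0 in all 24. Scaling by library size alone moved the median of all genes by 0.26 and Keap1 to 0.16. Keap1, close to 0 with all libraries, also became positive with sex (0.011), the length trend removed (0.046) and limma-voom (0.032). With the glial and neuronal marker mean as a covariate Keap1, Gclm and Srxn1 were at 0.27, 0.029 and 0.46, with the target median at 0.38. With the share of fragments off annotated exons they were at 0.43, 0.15 and 0.42, with the target median at 0.42. Without vehicle 2 and vehicle 5 they were at 0.49, 0.24 and 0.96, with the regulator median at 0.49 and the target median at 0.52. Without vehicle 5 and GW2580 5 they were at 0.43, 0.21 and 0.47, with the target median at 0.47, 2 members lower and 4844 genes at an adjusted p under 0.05, but these libraries were chosen for lying on the side of the other group, so this count is not evidence. Leaving out each library in turn gave -0.16 to 0.27 for Nfe2l2. The same gave -0.32 to 0.41 for Keap1, -0.39 to 0.17 for Gclm, -1.01 to 0.43 for Srxn1, -0.16 to 0.70 for Txnrd1, and -0.39 to 0.43 for the target median, and 0 to 2 members higher and 0 to 1 lower. Over all genes, 2136 to 6274 had an edgeR unadjusted p under 0.05 in either direction in these fits. The members higher numbered 3 with library size alone and with the exon percentage, where G6pdx joined Bach1 and Gclc (edgeR unadjusted p = 0.0204 and 0.0408). They numbered 1 with RLE factors, no filter, the length trend removed, limma-voom and thinned counts, and 0 with sex or the marker mean. The members lower numbered 0 with library size alone, the marker mean, the exon percentage and limma-voom. Of 28419 genes, 4721 had an unadjusted p under 0.05 in either direction with library size alone and 3220 with the exon percentage. With sex there were 3551, with the marker mean 3233 and with limma-voom 4178. Shares of all genes by direction are not given for these settings, so these counts of members are not read as results. The cause of these changes was not tested.

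Replicate numbers are shared between the groups but the labels do not pair the mice, and 1 of 5 numbers correlated best with its own (r from -0.57 to 0.39), so no pairing is assumed. With the replicate block Keap1 was at 0.042 and 1 member was higher, and 3227 genes had an unadjusted p under 0.05.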
